A study of Mus musculus with 25 samples.

Results

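Insulin and insulin-like growth factor (IGF) signalling was followed here through 10 genes of the 8829 in the deposited muscle table. They were taken by name and all 10 had a value in every mouse: the ligand Igf1, the receptors Igf1r and Insr, the adaptors Irs1 and Irs2, the binding protein Igfbp5, the kinase Akt2, the Akt substrate Tbc1d4, the glucose transporter Slc2a4 and the hexokinase Hk2. The tissue was gastrocnemius, a calf muscle, from male SAMP8 mice, an inbred strain (listed by its supplier as SAMP8 AKR/J) that ages early. From 8 months of age, for 3 months, 14 mice were given thymol, a plant phenol, by mouth in corn oil, and 11 control mice were given corn oil alone. The dose was 20 mg per kg on each dosing day, and by the paper's account dosing fell on most days of each week, not on all. All mice carried the SAMP8 background and no normally ageing strain was analysed here, so the comparison asks only what thymol does within SAMP8 muscle. Each mouse had its own library.

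In muscle, insulin acts through Insr, and IGF1, which the fibres and the cells around them also make, acts mainly through Igf1r. Both receptors phosphorylate the adaptors Irs1 and Irs2, which recruit phosphoinositide 3-kinase and so activate Akt. Akt2 then inactivates Tbc1d4 (also called AS160), which lets vesicles carrying the transporter GLUT4, the product of Slc2a4, reach the cell surface, and Hk2 phosphorylates the glucose that enters. Most of this signal is carried by phosphorylation and by movement of GLUT4, neither of which a messenger RNA level records. Irs2 transcription is known to rise in fasting and after cAMP signals and to fall under insulin.

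The values are log2 CPM, counts brought to a common library size on a log2 scale. QuantSeq reads the 3′ end of each polyadenylated transcript, so a count does not grow with transcript length. Levels of different genes are set side by side on that basis only. Other differences between genes in how well their reads are captured and assigned were not corrected. The summed reads of a library lay between 4463818 and 9463418 (median 7503259), and the members had between 102 reads (Igf1r, its lowest mouse) and 4276 reads (Igfbp5, its highest mouse). The fast fibre marker Myh4 had a mean of 15.04 log2 CPM, the slow fibre marker Myl3 9.24, the fibroblast marker Dcn 9.56 and the macrophage marker Lyz2 5.24, so the samples were fast muscle with other cells present. In such bulk samples, fewer cells of a type and less RNA per cell cannot be told apart. Among the libraries, control 18 had the highest summed leukocyte and fibroblast marker levels, and control 19 the highest level of genes linked to fasting and FoxO. Control 19 also had the highest sum of the adipocyte markers, 3254 CPM, close to the highest thymol mouse at 3132.

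RefSeq promoter windows (GRCm38.p6, 250 bases before to 50 after a start site) were found for 8 of the 10 members, in 11 windows, and not for Insr and Slc2a4. They were searched on both strands for 5 sets of letters. CACGTG, the E-box letters, and CAAAACA, the letters of the insulin response element, were each found in members only in Irs1 and Irs2, the adaptors, against 7.15% and 6.28% of all 32851 windows. GTAAACA (a FoxO motif, in 3.65% of all windows), TGACGTCA (the cAMP response element, 1.79%) and TGACTCA (the AP-1 motif, 5.20%) were in none of the 11 member windows. The 130 bases before each start are shown because Irs2 was the member with the largest difference between the groups and Irs1 is its closest relative among the members. Capitals mark CACGTG and TGTTTTG, which is CAAAACA on the opposite strand.
Irs1, chr1:82291440-82291569, minus strand: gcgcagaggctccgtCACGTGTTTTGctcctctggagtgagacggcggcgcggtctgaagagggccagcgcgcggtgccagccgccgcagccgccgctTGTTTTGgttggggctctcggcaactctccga
Irs2, chr8:11008930-11009059, minus strand: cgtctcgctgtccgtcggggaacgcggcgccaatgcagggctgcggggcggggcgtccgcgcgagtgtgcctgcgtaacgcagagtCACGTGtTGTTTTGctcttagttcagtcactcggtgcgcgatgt
In Irs1 the E-box begins at base 16 of the stretch and the insulin response letters at base 20, so that they overlap, with a second copy at base 99. In Irs2 the E-box begins at base 87 and the insulin response letters at base 94. RefSeq places the start of Irs2 upstream of the gene as GENCODE M21 draws it. A match of letters describes the sequence and does not show that a factor binds there.

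The 10 genes fell into 2 tiers of level. Igfbp5 (mean of 25 mice 8.59 log2 CPM), Hk2 (8.47) and Slc2a4 (8.32) were the abundant messages, and they ranked 160, 189 and 227 of the 8829 genes. The other members followed after a step of 2.49 between Slc2a4 and Irs1, which was seen in 25 of 25 mice. Irs1 was at 5.82, Tbc1d4 at 5.51, Akt2 at 5.46, Igf1 at 5.20, Insr at 5.006, Igf1r at 4.996 and Irs2 at 4.89. Neighbours in this lower tier changed places from mouse to mouse, for example Insr lay above Igf1r in 13 of 25 mice and Tbc1d4 above Akt2 in 15 of 25. Within the upper tier Hk2 exceeded Slc2a4 in 20 of 25 mice and Igfbp5 exceeded Hk2 in 15.

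**Figure D1:**
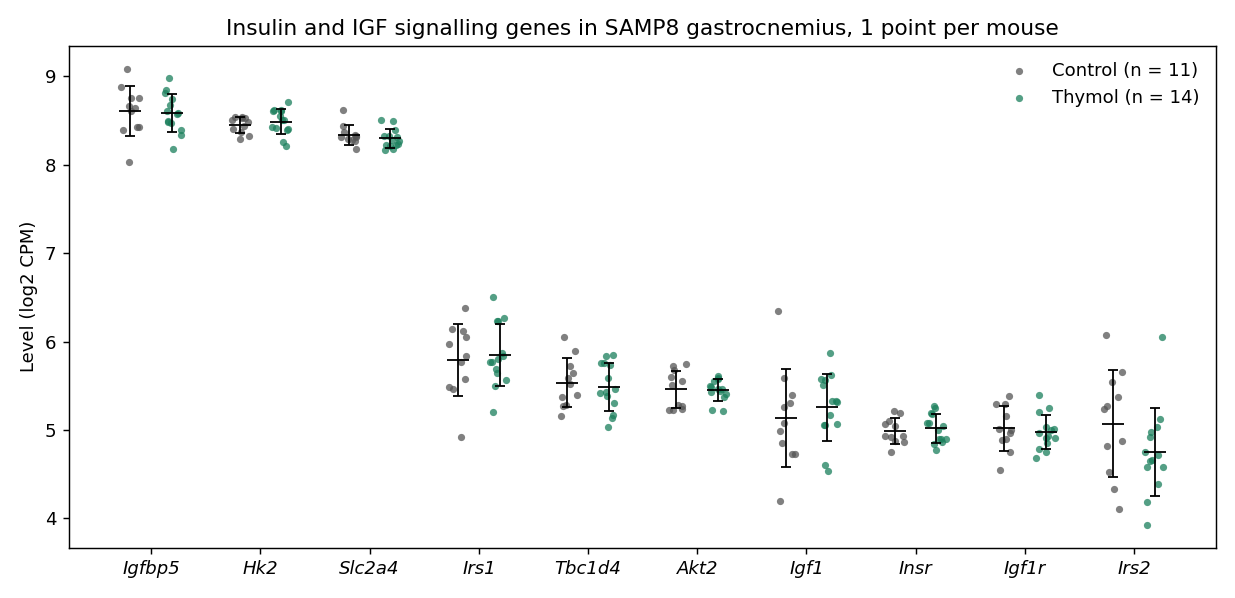
Level (log2 CPM, vertical axis) of the 10 genes in each mouse, ordered by mean, with control mice (n = 11) in grey and thymol mice (n = 14) in green; horizontal bars are group means and whiskers 1 SD. Igfbp5, Hk2 and Slc2a4 lie above 8 in every mouse, and Igf1, Irs1 and Irs2 spread most widely, with 1 thymol mouse (thymol 6) far above the other 13 for Irs2.

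Relatives of the members placed these levels within their families. Hk2, the insulin-regulated hexokinase of muscle, exceeded the general hexokinase Hk1 by 5.68 ± 0.56 (SD, n = 25) on the log2 scale, and Slc2a4 exceeded Slc2a1, which encodes the basal transporter GLUT1, by 5.88 ± 0.52. Both differences were positive in 25 of 25 mice. Akt1, the isoform more linked to growth, and Akt2, the isoform more linked to glucose uptake, had a mean difference of -0.03 ± 0.20, with Akt1 above in 13 of 25 mice. Tbc1d4 lay above its relative Tbc1d1 in 20 of 25 mice by 0.34 ± 0.52. Igf2, the second IGF, was not analysed here because the table does not list it.

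How much a gene varied from mouse to mouse differed widely between members. Irs2 spanned a 4.44-fold range between its lowest and highest mouse, Igf1 a 4.43-fold range and Irs1 a 2.99-fold range. Slc2a4 spanned only 1.37-fold, Hk2 1.41-fold, Insr 1.43-fold and Akt2 1.44-fold. Set against the 500 genes of nearest mean level, the within-group SD of Irs2 (0.54) stood at the 96.8 percentile, that of Igf1 (0.46) at the 96.2 and that of Irs1 (0.38) at the 93.2, whereas Insr (0.16) stood at the 5.4 and Slc2a4 (0.11) at the 9.0. The counting error of the reads alone was between 0.03 (Igfbp5) and 0.10 (Irs2) on the same scale.

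The question put to the treatment groups was whether 3 months of thymol changed the level of these messages. None of the 10 passed the threshold of 0.05 after Benjamini-Hochberg adjustment over 8829 genes (limma, adjusted p = 0.9999 for each), and 0 of 10 passed it before adjustment. Among all genes tested 0 (0%) were called after adjustment and 312 (3.53%) had an unadjusted p under 0.05, and a count-based fit (limma voom on the reads recovered from the values) also called 0 genes after adjustment. Of the members 4 were higher and 6 lower with thymol, with a median difference of -0.01, against 4375 of all genes higher (49.6%) and a median of -0.00. Below, each difference is thymol minus control on the log2 scale with its standard error (SE) and 95% interval.

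Irs2 (chr8:10984681-11008458, minus strand, GENCODE M21 on GRCm38 as for all positions that follow) had the largest difference. In control mice it ranged from 4.11 (control 35) over a median of 5.24 to 6.08 (control 14), and in thymol mice from 3.93 (thymol 11) over a median of 4.69 to 6.05 (thymol 6). Of the 14 thymol mice 13 were under the median of the controls, while the ranges of the groups overlapped nearly completely. As many or more thymol mice were under the control median for 112 genes of the table (1.27%). Genes with such a split in the upward direction are not in this count. The difference was -0.32 (SE 0.20, interval -0.72 to 0.08, unadjusted p = 0.113, limma), a fold of 0.80 with an interval that reaches from a fall of 39.4% to a rise of 5.72%. Thymol 6 was the exception and lay close to the highest control mouse. Without it the difference was -0.42 (unadjusted p = 0.0232, adjusted p = 0.9999, limma), and without control 14 it was -0.22. Over every refit that left out 1 mouse the adjusted p of Irs2 was 0.997 or higher.

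Irs1 (chr1:82233101-82291416, minus strand), the other adaptor, had a smaller difference, and the contrast between the adaptors was not tested. Its control values ran from 4.92 (control 19) over a median of 5.83 to 6.38 (control 32), and its thymol values from 5.21 (thymol 16) over 5.79 to 6.50 (thymol 6). The groups overlapped throughout, and the difference was 0.05 (SE 0.14, interval -0.23 to 0.34), which became -0.03 without control 19. Irs1 exceeded Irs2 in 9 of 11 control mice and in 14 of 14 thymol mice, by a mean of 0.72 ± 0.59 (SD) and 1.10 ± 0.53.

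Igf1 (chr10:87858265-87937042, plus strand), the ligand, ranged in control mice from 4.199 (control 31) over a median of 5.07 to 6.35 (control 18), and in thymol mice from 4.53 (thymol 9) over 5.32 to 5.87 (thymol 6). Both the lowest and the highest mouse of the series were controls. The difference was 0.12 (SE 0.17, interval -0.22 to 0.47), a fold of 1.09, and it was 0.24 without control 18, the highest mouse, and 0.030 without control 31, the lowest. A rise of up to 38.3% and a fall of up to 14.2% lie within its interval.

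The receptors had nearly the same mean level, and Igf1r varied more than Insr (1.79-fold against 1.43-fold between the lowest and highest mouse). Igf1r (chr7:67952827-68233668, plus strand) ran from 4.55 over a median of 4.999 to 5.39 in control mice and from 4.69 over 4.95 to 5.39 in thymol mice, a difference of -0.04 (interval -0.22 to 0.14). Insr (chr8:3122061-3279617, minus strand) ran from 4.76 over 4.93 to 5.22 in control mice and from 4.77 over 5.02 to 5.27 in thymol mice, a difference of 0.03 (interval -0.11 to 0.17). For neither receptor does the interval hold a rise above 12.2% or a fall beyond 14.2%.

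Igfbp5 (chr1:72857932-72874884, minus strand), the most abundant member and a secreted protein that binds IGFs, ranged from 8.04 (control 19) over 8.64 to 9.09 (control 18) in control mice and from 8.17 (thymol 3) over 8.58 to 8.98 (thymol 6) in thymol mice. Its difference was -0.02 (interval -0.21 to 0.17). The most extreme values on both sides again came from 2 control mice. Thymol 6 was the highest thymol mouse for 4 of the 10 members, Igf1, Irs1, Irs2 and Igfbp5.

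Downstream of the adaptors, no difference exceeded 0.05 in absolute size. Akt2 (chr7:27591552-27640826, plus strand) ran from 5.23 to 5.74 in control mice (median 5.51) and from 5.22 to 5.61 in thymol mice (median 5.46), with a difference of -0.01 (interval -0.15 to 0.14). Tbc1d4 (chr14:101442360-101609191, minus strand) ran from 5.16 to 6.05 (median 5.52) and from 5.04 to 5.85 (median 5.45), with a difference of -0.04 (interval -0.26 to 0.17). Slc2a4 (chr11:69942539-69948188, minus strand) ran from 8.18 to 8.62 (median 8.31) and from 8.17 to 8.50 (median 8.28), with a difference of -0.04. Its interval, from -0.14 to 0.06, was the narrowest of the members, so a change of GLUT4 message beyond a fall of 9.30% or a rise of 4.07% lies outside it. Hk2 (chr6:82725025-82774454, minus strand) ran from 8.29 to 8.54 (median 8.49) in control mice and from 8.21 to 8.71 (median 8.51) in thymol mice, with a difference of 0.04 (interval -0.07 to 0.14).

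**Figure D2:**
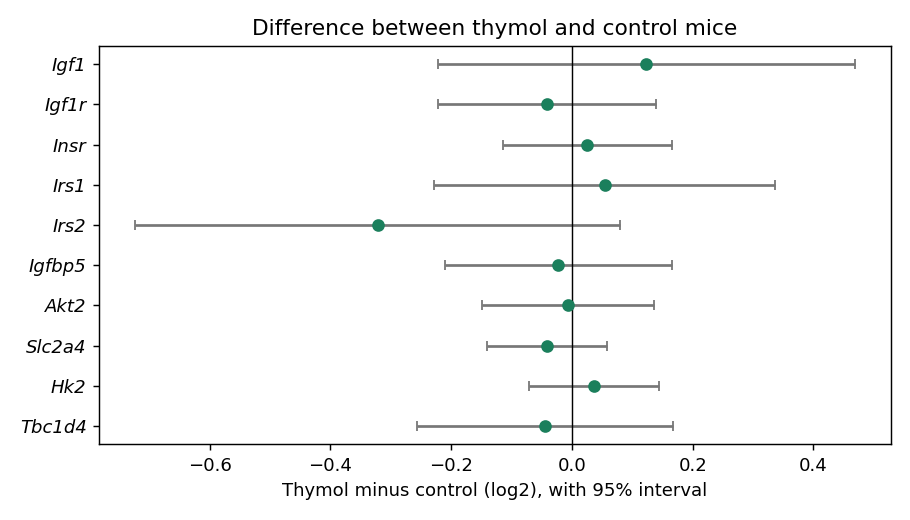
Difference between thymol (n = 14) and control (n = 11) mice for each gene (horizontal axis, log2, thymol minus control; points are limma estimates and bars 95% intervals). All 10 intervals cross 0, and Irs2 at -0.32 lies farthest from it.

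The rest of the pathway was read from a list of 121 symbols, 2 of which name the same gene, Trarg1. The table holds 98 of them. None was called after adjustment (limma, Benjamini-Hochberg), 38 were higher and 60 lower with thymol, and the median difference was -0.02. At an unadjusted p under 0.05 there were 3 of 98 (3.06%), a share close to the 3.53% of all genes. Trib2, a pseudokinase that binds Akt, was at -0.26 (SE 0.10, unadjusted p = 0.0131, limma), with control values from 4.39 to 5.13 and thymol values from 4.11 to 4.98. Tsc2, the inhibitor of mTORC1 that Akt phosphorylates, was at 0.27 (SE 0.12, unadjusted p = 0.0343, limma), from 3.08 to 4.29 in control mice and from 3.61 to 4.36 in thymol mice. Eif4ebp1, the translation repressor that mTORC1 inactivates, was at -0.23 (SE 0.11, unadjusted p = 0.0475, limma). Next in order of p came Rheb, the activator of mTORC1, at -0.16, and among the higher genes the vesicle protein Vamp3 at 0.11. The groups overlapped for each of these 5. The other ligands and binding proteins (Igfbp3, Igfbp4, Igfbp6, Igfbp7 and Htra1) were 5 of 5 lower, none at an unadjusted p under 0.05, with a median of -0.06.

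Between mice, the 10 genes did not move as a unit. Correlations were taken over the 25 mice after the group mean was removed, with two-sided permutation p from 100000 permutations within groups, for 45 member pairs. Pearson's r ran from -0.45 to 0.57 with a median of 0.08, and 26 of the 45 were positive. One pair (1 of 45, 2.22%) reached an absolute r of 0.5, against 2.29% of all pairs of genes in the table, and 4 pairs (8.89%) reached 0.4, against 7.48% of all pairs, so these shares are near the background. No member was called in a fit of the table on another member (0 of 90 ordered pairs, smallest adjusted p = 0.121, limma, Benjamini-Hochberg).

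The pair above 0.5 was Irs2 with Akt2, the adaptor and the kinase downstream of it. Pearson's r was 0.57 (permutation p = 0.0055) and Spearman's rho 0.65 (permutation p = 0.0017), and the adjusted p was 0.121 in the fit on Akt2 and 0.682 in the fit on Irs2 (limma). Within control mice r was 0.80 and within thymol mice 0.21, a difference that was not tested. Without the 2 mice farthest from the median of Irs2 r was 0.71, and without thymol 6, which had a high Irs2 beside a middling Akt2, it was 0.70. Leaving out control 35 gave 0.52, the lowest of the 25, and with the slow fibre score removed from both genes r was 0.45, below the 0.5 that set the pair apart.

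The other 3 pairs past 0.4 were weaker without the 2 farthest mice. Igf1 and Akt2 had a negative relation (r = -0.45, rho = -0.51, permutation p = 0.0431 and 0.0146), with r = -0.34 without the 2 farthest mice and -0.35 without control 18. With the slow fibre score removed from both genes this r was -0.54, past the 0.5 used above. Irs1 and Igfbp5 had r = 0.43 (permutation p = 0.0400) and rho = 0.31 (permutation p = 0.136), with r = 0.12 without the 2 farthest mice and 0.25 without control 19. Irs2 and Slc2a4 had r = 0.42 (permutation p = 0.0393) and rho = 0.18 (permutation p = 0.383), and r was -0.01 without the 2 farthest mice. The receptors Igf1r and Insr, which can form hybrid receptors, had r = 0.03, and the adaptors Irs1 and Irs2 r = 0.30.

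**Figure D3:**
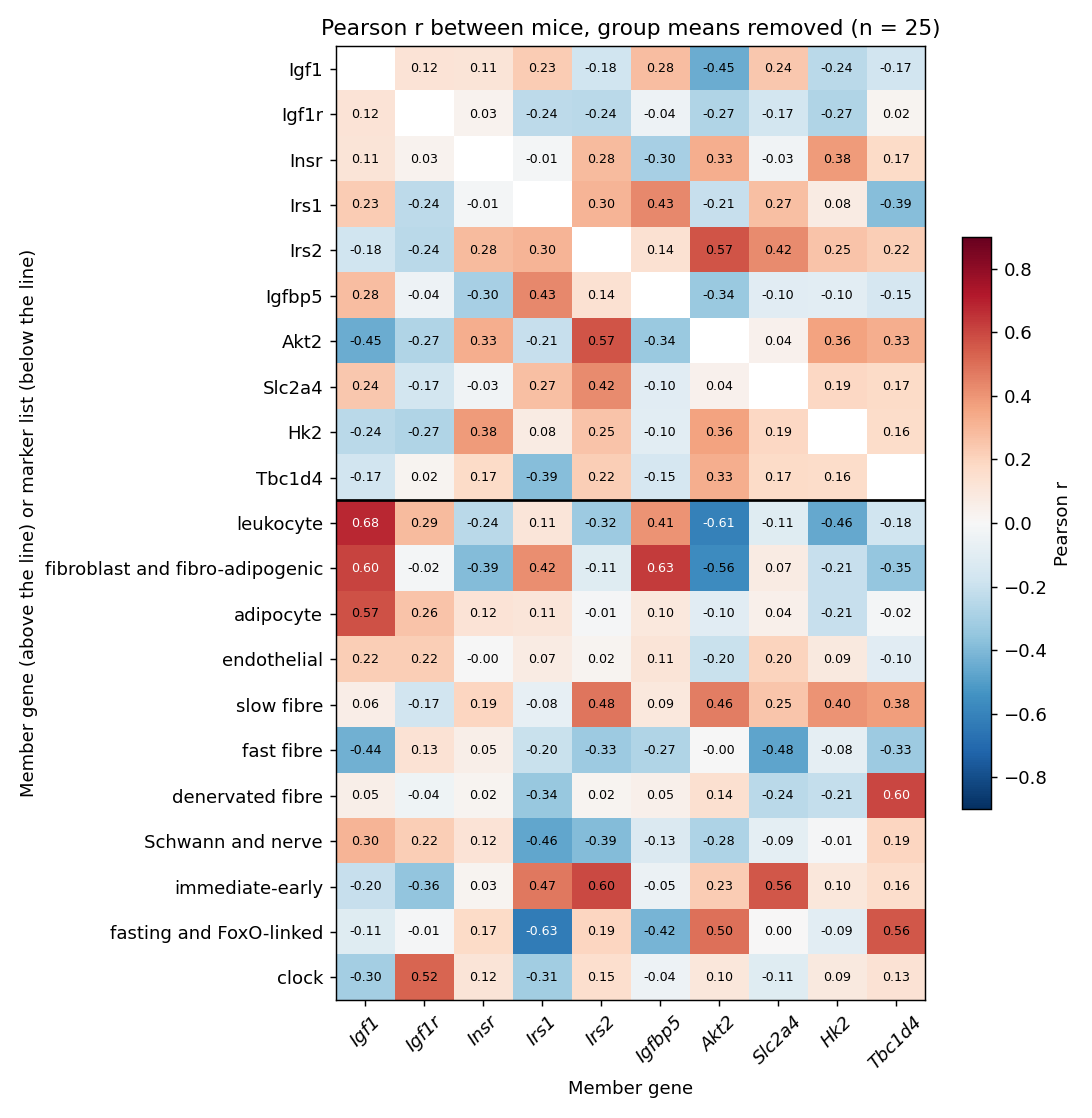
Pearson r over 25 mice, with group means removed, of the 10 genes with each other (upper block) and with scores of marker lists (lower block); red is positive and blue negative, and each cell prints its r. Only Irs2 with Akt2 reaches 0.5 among the members, while Igf1 reaches 0.68 with the leukocyte score and Igfbp5 0.63 with the fibroblast score.

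Which other genes varied with the members differed sharply from member to member. In limma fits of all other genes on each member (8828 genes, treatment in the model, Benjamini-Hochberg), 208 genes (2.36%) were called with Igf1, 5 (0.0566%) with Hk2 and 1 each (0.0113%) with Igf1r, Irs1, Akt2 and Tbc1d4. With Insr, Irs2, Igfbp5 and Slc2a4 the count was 0 (0%), although 359, 541, 726 and 867 genes had an unadjusted p under 0.05 with them. Igfbp5 reached up to 13 called genes when 1 mouse was left out (13 without thymol 16) and had any in 9 of 25 such refits. No other tool was run for these counts.

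Igf1 varied with leukocyte and fibroblast markers. Of the 208 genes called, 164 rose with Igf1 and 44 fell. They held 7 of the 8 leukocyte markers in the table, among them Cd68 (a macrophage lysosomal protein, adjusted p = 0.0116, limma) and the complement genes C1qa, C1qb and C1qc, and 5 of the 10 fibroblast markers, Mfap5, Dpt, Gsn, Lum and Col3a1. Of the 8 adipocyte markers Adipoq and Cfd were called, while 0 of 10 endothelial, 0 of 6 Schwann cell and nerve and 0 of 2 satellite cell markers were. Of the 98 wider pathway genes 2 were called, a share near the 2.36% of all genes. They were Pik3r1, the regulatory subunit of phosphoinositide 3-kinase (adjusted p = 0.0045, limma), and Trarg1, which encodes a protein of GLUT4 vesicles. Of the 11 fasting and FoxO-linked genes only Fbxo32 was called, the atrophy-linked ubiquitin ligase also called atrogin-1. Its level fell as Igf1 rose (adjusted p = 0.0258, limma). The genes most like Igf1 by Pearson's r over 25 mice were Ccdc80 (0.85, rho = 0.81), Ly6c1 (0.85, rho = 0.73) and Hp (0.79, rho = 0.83).

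The same relation was measured with scores, the mean of a list's genes after each was centred. In all 150 relations of the 10 members with 15 scores and library measures were computed, and 3 of the 140 that had a fit across the table were called. Of these, 2 were Igf1. The leukocyte score, with which 349 of 8821 genes (3.96%) were called, had r = 0.68 with Igf1 (rho = 0.62, permutation p = 0.0003 and 0.0013, adjusted p = 0.0031, limma), 0.90 within control and 0.41 within thymol mice. The fibroblast score, with which 304 of 8819 genes (3.45%) were called, had r = 0.60 with Igf1 (rho = 0.59, adjusted p = 0.0213, limma), 0.65 within control and 0.53 within thymol mice. The adipocyte score, with 62 of 8821 genes called (0.703%), had r = 0.57 with Igf1 (rho = 0.65, adjusted p = 0.112, limma).

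These values depend on control 18. It had the highest Igf1 and the highest summed markers, 464 CPM over the leukocyte list where the other mice of both groups reached at most 324, and 5023 CPM over the fibroblast list where thymol mice reached at most 4130. Without it 11 genes were called with Igf1, r was 0.55 with the leukocyte score (adjusted p = 0.114, limma) and 0.42 with the fibroblast score (adjusted p = 0.428, limma). Leaving out any other mouse gave 133 to 261 genes called with Igf1. With the fibroblast score in the model 3 genes were called with Igf1 and with the adipocyte score 60. None of the marker genes had 0 reads in any mouse. The lowest counts were however 1 read in the immediate-early, 2 in the adipocyte and 3 in the denervated fibre list. Ptprc and Adgre1, which define leukocytes and macrophages, are not listed in the table. The part that the number of such cells plays in the level of Igf1 was not tested.

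Igfbp5 was the third called relation. It rose with the fibroblast score (r = 0.63, permutation p = 0.0021, adjusted p = 0.0197, limma), but rho was 0.40 (permutation p = 0.0560) and r fell to 0.36 without the 2 farthest mice. Control 18 was at the top of both measures and control 19 at the bottom of both, and the adjusted p was 0.208 without the first and 0.0824 without the second (limma). The relations of Akt2 were opposite in sign to those of Igf1, with r = -0.61 for the leukocyte score (rho = -0.57, adjusted p = 0.0641, limma) and -0.56 for the fibroblast score (rho = -0.55, adjusted p = 0.118, limma). The gene called with Akt2 was Podn, a proteoglycan of the extracellular matrix, with r = -0.79 (adjusted p = 0.0113, limma). No gene was called with Akt2 without control 18 or with the fibroblast score in the model, and 69 were without control 23.

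**Figure D4:**
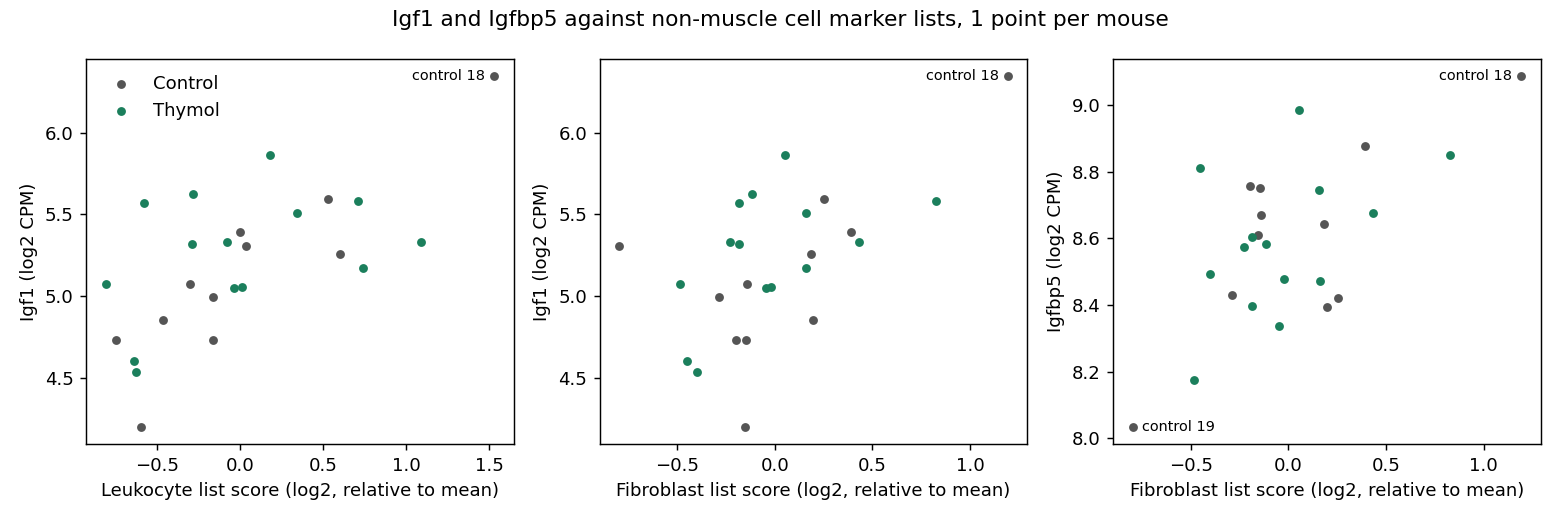
Igf1 (left and middle, log2 CPM) and Igfbp5 (right, log2 CPM) against the leukocyte score and the fibroblast score (horizontal axes, log2 relative to the mean of all mice), 1 point per mouse, control grey and thymol green. Both genes rise with the scores (r = 0.68, 0.60 and 0.63 with group means removed), and control 18 lies alone at the upper right of each panel.

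The adaptors had their largest r with scores of the response to fasting and to acute stimuli, and neither passed adjustment. Irs1 was negatively related to the fasting and FoxO-linked score (r = -0.63, rho = -0.43, permutation p = 0.0016 and 0.0372, adjusted p = 0.124, limma). This score, whose most abundant gene is Txnip, was called with 8 of 8818 genes (0.0907%). Control 19 had the lowest Irs1 (4.92) and the highest sum of this list, 2342 CPM, where thymol mice reached at most 1746, and without it r was -0.46. Within thymol mice, which do not include it, r was -0.62. Irs2 was positively related to the immediate-early score (r = 0.60, rho = 0.44, permutation p = 0.0022 and 0.0339, adjusted p = 0.322, limma), with which 2 of 8820 genes (0.0227%) were called, and r was 0.30 without the 2 farthest mice. The immediate-early genes were 8 of 9 lower with thymol (median -0.22), the slow fibre genes 9 of 9 (median -0.24) and the Schwann cell and nerve genes 5 of 6 (median -0.27), none called after adjustment. The denervated fibre genes went the other way, with 5 of 6 higher (median 0.14). Thymol 20 lay far below all other mice on the slow fibre score, at -4.78 where the next lowest, thymol 3, was at -1.86. How far the slow fibre count rests on thymol 20 was not tested. The part of any of these lists in the level of Irs2 was not tested.

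**Figure D5:**
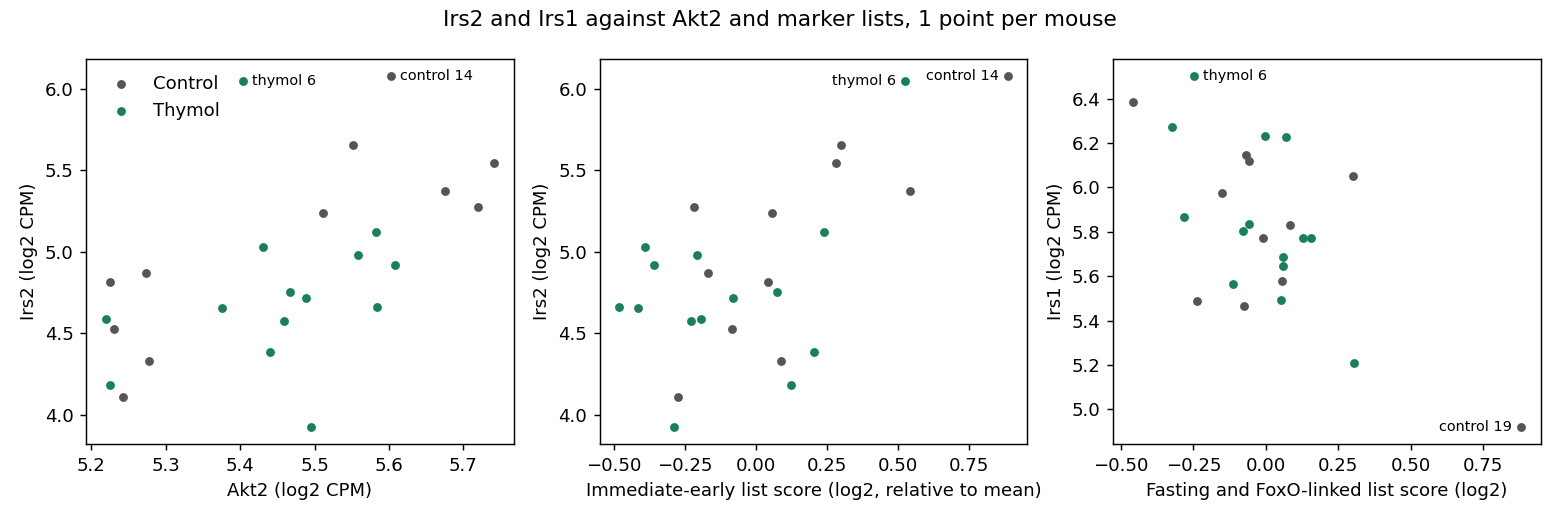
Irs2 (log2 CPM) against Akt2 (left, log2 CPM) and against the immediate-early score (middle), and Irs1 against the fasting and FoxO-linked score (right), scores in log2 relative to the mean of all mice, 1 point per mouse. The slopes are upward for Irs2 (r = 0.57 and 0.60) and downward for Irs1 (r = -0.63), and thymol 6, control 14 and control 19 are the labelled extremes.

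Further relations of this kind were with fibre markers. Tbc1d4 had its largest r with the score of genes that denervated fibres express (r = 0.60, rho = 0.53, permutation p = 0.0020 and 0.0093), with which 3 of 8823 genes (0.034%) were called, and its adjusted p was 0.194 (limma). With the fasting and FoxO-linked score Tbc1d4 had r = 0.56 (adjusted p = 0.270, limma), opposite in sign to Irs1. Control 19, the lowest mouse for Irs1, was the highest for Tbc1d4 (6.05) and for this score (0.88, next thymol 16 at 0.30). The 2 relations thus share an extreme mouse. The slow fibre score, with 87 of 8820 genes called (0.986%), had r = 0.48 with Irs2, 0.46 with Akt2 and 0.40 with Hk2, with adjusted p of 0.219, 0.432 and 0.532 (limma). All of these r include thymol 20, the far lowest mouse on this score (-4.78). It was also low for Irs2 (4.18), Akt2 (5.23) and Hk2 (8.26), and no r without it is given here. Slc2a4 had r = -0.48 (rho = -0.39) with the fast fibre score and 0.56 (rho = 0.27) with the immediate-early score, neither called after adjustment. Control 14 was the highest mouse both for Slc2a4 (8.62) and for the immediate-early score (0.89). Igf1r had its highest r with the clock score (0.52, rho = 0.58, adjusted p = 0.652, limma).

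Single genes stood beside the other members. Tbc1d4 and Amy1, an amylase gene, had r = 0.82 and rho = 0.81 (adjusted p = 0.0025, limma), and r was 0.83 within control and 0.81 within thymol mice. Amylase genes are near-identical copies, so reads of Amy1 may be shared with them. Igf1r fell as Cav3, the muscle caveolin, rose (r = -0.82, rho = -0.79, adjusted p = 0.0374, limma), and Irs1 fell as Tfcp2l1, a transcription factor, rose (r = -0.77, rho = -0.74, adjusted p = 0.0282, limma). These calls were not stable: with Igf1r no gene was called in 16 of 25 refits that left out 1 mouse, nor with the slow fibre or the immediate-early score in the model, and with Irs1 no gene was called in 7 of 25. Hk2 rose with the phosphatase gene Ptpn3 (r = 0.78, adjusted p = 0.0093, limma), with Fndc5, which encodes the precursor of irisin, with the sodium pump subunit Atp1b1 and with mt-Nd5, and fell as Lgals3, a macrophage-rich galectin, rose (r = -0.70, adjusted p = 0.0396, limma). Without control 19 the count for Hk2 was 1, with quantile normalization 2, after median centring 15 and with the slow fibre score in the model 0. The genes most like the members that had no call were Pdcd2l for Insr (0.62), Impact for Irs2 (0.70), Ctsh for Igfbp5 (0.74) and Ifrd1 for Slc2a4 (0.73).

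Genes on the opposite strand overlap 5 of the members in GENCODE M21 (Igf1, Insr, Irs1, Irs2 and Hk2), and the strand setting of the counting is not given in the sources used here. Only for Irs1 does the overlapping gene, Gm9747, reach the last 2000 bases of the gene, where 3′ reads fall, so reads of Irs1 and Gm9747 may be mixed. Gm34417 lies on the same strand within Tbc1d4.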

How the data were processed

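Gastrocnemius RNA of 25 mice was profiled with QuantSeq 3′ libraries. According to the paper's methods and the submitters' processing notes, the authors used STAR 2.5.3 for mapping (GRCm38, Ensembl 101) and HTSeq 0.6.1 for counting, kept genes with 30 reads in at least 6 samples and applied TMM scaling. The deposited values are log2 CPM. All columns were used (0 left out). Reads were recovered from the steps between values, and 100.0% came out whole within 0.05 reads. They were made with PCR and no molecular identifiers were used, so counting SDs cover counting error only. Mice were grouped by treatment and named by the last number of the label.

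The deposited values were fitted across all 8829 genes in limma 3.58.1 (R 4.3.3, statmod 1.5.0) with treatment as the term, trend moderation and Benjamini-Hochberg adjustment at 0.05. Co-variation fits added a member or a list score. A list's own genes were not tested against its score. Permutations, correlations and figures used Python 3.11.15, numpy 2.4.6, pandas 2.3.3, scipy 1.17.1 and matplotlib 3.10.9. Positions of genes were read from GENCODE M21, and promoters from RefSeq. Procedures were tested on simulated data, in which genes varied independently of each other. Of 200 changed genes the treatment fit found 66.5% at a change of 0.5 log2 and 93.5% at 1. The co-variation fit found 46.5% of 200 genes given a slope of 1 within-group SD, so a count of 0 called genes can miss real relations.

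Named genes were the 10 members, the wider pathway's 3 lowest p-values among higher and among lower genes, the genes with the largest r for each member, family partners for level, and marker genes on which a result turns. Genes named for a count of 5 or fewer, the 5 binding proteins and the marker and pathway genes called with Igf1 were chosen after their values were seen. One gene that the rule names is not reported here. The members and lists were chosen with earlier results of these data known. The alternatives were other scalings, filters, moderation settings, voom, covariates, a block for the first label number, the library number and each mouse left out.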

Additional observations from a re-analysis of the deposited data

How the results depend on the processing

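In 9 refits with other settings and 25 that left out 1 mouse, 0 genes, 0 members and 0 genes of the wider pathway were called for thymol (limma, Benjamini-Hochberg), and the number of genes below 0.05 before adjustment lay between 234 and 348. Members at an unadjusted p under 0.05 numbered 0 to 1 when 1 mouse was left out and 1 with the replicate block, in each case Irs2. The first label number gave the block. Mice that share it are different animals, and their residuals did not deviate together (mean r -0.00 over 9 pairs between groups, 0.00 over the other 145). With the block Irs2 was at -0.55 (unadjusted p = 0.0040, limma, with every adjusted p of Irs2 at 0.997 or higher), and Igf1 (-0.12), Insr (-0.054), Irs1 (-0.19) and Tbc1d4 (0.077) changed sign. Mice whose first label number occurs in 1 group only do not inform the difference in that fit. Among them are thymol 6 and control 35, the highest thymol mouse and the lowest control mouse for Irs2. Sample weights turned Akt2 (0.021) and Tbc1d4 (0.0051), and quantile normalization turned Akt2 (0.0023). When 1 mouse was left out, Igf1 ran from 0.030 to 0.24, Irs1 ran from -0.033 to 0.11, Igfbp5 from -0.080 to 0.025, Akt2 from -0.030 to 0.022 and Tbc1d4 from -0.082 to 0.0068. Igf1r, Irs2, Slc2a4 and Hk2 kept their direction in all refits. The cause of these changes was not tested.

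Genes called with Igf1 numbered 11 to 261 when 1 mouse was left out, 60 with the adipocyte score and 3 with the fibroblast score in the model, the last chosen after seeing the data. Without thymol 9 the count was 133. Leave-one-out slopes ran from 0.40 to 0.60 for Igf1 on the leukocyte score, from 0.45 to 0.86 for Igf1 and from 0.29 to 0.41 for Igfbp5 on the fibroblast score, and these fits were also added after seeing the data. Member pairs with an absolute r of 0.5 or more numbered 1 to 4 when 1 mouse was left out (4 without control 19). In control mice only they numbered 7 of 45, where 13.7% of all pairs of genes reached 0.5. In thymol mice only they numbered 5 of 45, against 7.85% of all pairs. No ordered member pair was called in any refit. The groups of 11 and 14 mice limit the precision for Igf1 and Irs2, whose 95% intervals reach a rise of 38.3% and a fall of 39.4%.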
